A study of Mus musculus with 6 samples.

Results

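Non-cycling basal keratinocytes of mouse dorsal skin were taken from single-cell RNA sequencing libraries by their keratin transcripts. A cell was taken when Krt5 and Krt14 together made up at least 30 of every 10000 of its UMIs and Krt1 and Krt10 together fewer than 30. A UMI is the tag that marks one captured RNA molecule. Cells with at least 5 of every 10000 UMIs from Krt79, a gene of the upper hair follicle, were left out, as were cells with 2 or more UMIs of the proliferation genes Mki67 and Top2a, cells with at least 10 of every 10000 UMIs from the collagen genes Col1a2 and Col3a1, and cells with any UMI of the leukocyte gene Ptprc. The members were thus chosen by measured UMIs of these genes alone. This gate took 6246 of 50850 cells (12.3%), and these 10 genes are not reported as findings. Sham replicates 1 and 2 gave 3158 and 510 such cells, IMQ replicates 313 and 194, and IMQ+SHP099 replicates 1936 and 135. Pairs of values below follow this order of replicates.

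All mice were female C57BL/6J, 8 to 10 weeks old, with shaved dorsal skin. The Sham group had no treatment. The IMQ group was given 62.5 mg of cream with 5% imiquimod, a TLR7 agonist that induces psoriasis-like skin inflammation, daily for 4 days, and the IMQ+SHP099 group received in addition 10 mg/kg of SHP099, a small molecule that blocks the tyrosine phosphatase SHP2 at an allosteric site, by gavage daily for 4 days. Skin of several mice was pooled for each library, with fewer mice per library in Sham than in the treated groups. The library is thus the replicate (n = 2 per group), and p-values measure the spread between pooled libraries. No group received cream without imiquimod or SHP099 alone.

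Basal keratinocytes form the lowest layer of the epidermis and rest on the basement membrane. They hold on to it through hemidesmosomes, built from the integrins Itga6 and Itgb4 and the collagen Col17a1, and their keratin filaments are made of Krt5 and Krt14, with Krt15 in undisturbed skin. A cell that leaves the layer sheds these contacts, switches to Krt1 and Krt10 and starts to make proteins of the cornified envelope. In wounds and in psoriatic plaques keratinocytes make Krt6, Krt16 and Krt17 instead, with antimicrobial proteins such as S100a8 and S100a9.

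The name fitted the Sham cells and fitted a minority of the cells the same gate took from treated skin. Cells were thinned to 2000 UMIs so that depth was equal, and gated cells with fewer were left out of values at this depth. That kept 3038 and 498 Sham cells, 283 and 183 IMQ cells and 1872 and 125 IMQ+SHP099 cells. UMIs were summed over 6 attachment genes (Itga6, Itgb4, Col17a1, Krt15, Itga3 and Itgb1). At least 3 such UMIs were found in 97.1% and 96.6% of the Sham cells, in 26.5% and 38.3% of the IMQ cells and in 37.4% and 32.8% of the IMQ+SHP099 cells. Exact binomial (Clopper-Pearson) 95% intervals, for counting error alone, were 94.6 to 98.0% for Sham replicate 2 and 31.2 to 45.7% for IMQ replicate 2, the Sham library with the lowest share and the treated library with the highest. Fibroblasts of the same libraries, which should lack most of these transcripts but express Itgb1, reached that level in 3.11 to 6.69% of cells. The difference was not particular to the gated cells. Cycling keratinocytes, with 2 or more UMIs of Mki67 and Top2a and no limit on Krt1 and Krt10, showed it too. They reached that level in 93.6% and 85.0% of Sham cells, 33.0% and 35.1% of IMQ cells and 41.4% and 36.7% of IMQ+SHP099 cells.

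The median gated cell held 16 and 15 attachment UMIs in Sham, 0 and 1 in IMQ, with 1 and 1 in IMQ+SHP099. The reverse held for 4 differentiation genes outside the gate (Krtdap, Sbsn, Dsg1a and Dsc1), which are made above the basal layer. At least 3 of their UMIs were found in 9.08% and 7.63% of the Sham cells, 75.6% and 61.7% of the IMQ cells and 64.9% and 68.0% of the IMQ+SHP099 cells. Cells with differentiation UMIs and fewer than 3 attachment UMIs made up 0.724% and 0.803% of Sham cells, against 50.3 to 66.1% in the 4 treated libraries. They had low Krt1 and Krt10 all the same, and are called here by the gate, as cells high in Krt5 and Krt14 and low in Krt1 and Krt10. The cut at 3 UMIs is a range and not a type, since 13.6 to 21.0% of gated cells in treated libraries held 2 or 3 attachment UMIs, against 2.61 to 3.69% in Sham.

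**Figure D1:**
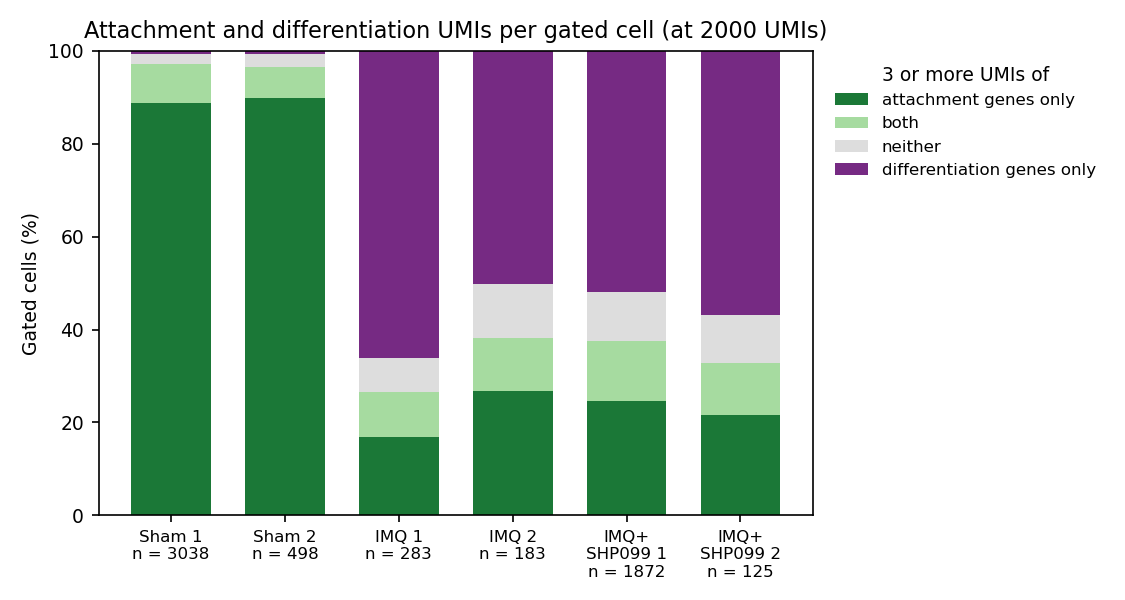
Share of gated cells (%) in each library with 3 or more UMIs of the 6 attachment genes, the 4 differentiation genes, both or neither. Cells were thinned to 2000 UMIs, and those with fewer were left out (n is the number of cells). Dark green fills 88.7% and 89.8% of the Sham bars and 17.0 to 26.8% of the treated bars, where purple fills 50.3 to 66.1%.

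The gate itself bore differently on the groups. The median sum of Krt1 and Krt10 in gated cells was 1.66 and 1.80 per 10000 UMIs in Sham and at most 0.564 in the treated libraries. Just inside the Krt1 and Krt10 limit, at 20 to 30, lay 4 to 113 cells of a library, and just outside, at 30 to 40, lay 1 to 80. Gated cells of treated skin were also deeper, with medians of 21736 to 33502 UMIs per cell against 7988 and 12549 in Sham, while fibroblasts in the same 6 libraries held 5566 to 10258. Total UMIs over gated cells ran from 2988089 to 42160663 per library, lowest in IMQ+SHP099 replicate 2. At most 3 cell barcodes were shared by any 2 libraries. Markers of other cells were low but not level. In plain CPM, without TMM scaling, the summed level of 9 Langerhans cell and macrophage markers was 128 CPM in Sham replicate 1 and 4.2 to 19.2 CPM in the other 5 libraries, and that of 5 red cell genes was 351 CPM in Sham replicate 2 and at most 21.1 elsewhere. Here and below CPM means UMIs per 1000000 over all gated cells of a library, with library sizes scaled by TMM, except that marker sums and all fibroblast values are plain CPM. The sum of 8 fibroblast markers was 47.5 to 122 CPM in gated cells and 20160 to 33550 in fibroblasts.

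IMQ was compared with Sham on the UMIs summed over gated cells of each library, with edgeR across 11821 genes. A gene was called at an adjusted p under 0.05, which 2460 genes (20.8%) passed, 1199 of them higher in IMQ (10.1%) and 1261 lower (10.7%). The median log2 fold change over all genes tested was -0.05. The count rested in part on the libraries. Without IMQ replicate 1 it was 1018, and without IMQ replicate 2 it was 1614. In the gated cells with 3 or more attachment UMIs, a subset chosen after the data were seen, it was 927, of which 824 were among the 2460. These cells numbered 2950 and 481 in Sham, 75 and 70 in IMQ, with 701 and 41 in IMQ+SHP099. Values given below as those of attachment-positive cells come from them. The share of 20.8% over all genes belongs to the full sums. It is not a background for counts of list genes called in attachment-positive cells. Those counts stand below without a share over all genes, and are not set against one.

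Transcripts that anchor the basal layer fell. Of 23 tested genes of the hemidesmosome and basement membrane list, 15 were lower in IMQ, none was higher and the median log2 fold change was -1.85. Without IMQ replicate 1 there were 9. Col17a1, the transmembrane collagen of the hemidesmosome (chromosome 19, 47646344 to 47692094, GRCm38), measured 1737 and 1404 CPM in Sham, 249 and 225 in IMQ, with 452 and 292 in IMQ+SHP099. The Sham and treated libraries did not overlap, which held for 65.1% of all genes in IMQ against Sham and 59.5% in IMQ+SHP099 against Sham. The change was -2.73 ± 0.40 (log2 fold change ± SE, adjusted p = 0.00068). Itga6, the alpha chain of the laminin receptor integrin, measured 470 and 733 CPM in Sham and 194 and 140 in IMQ, and its partner Itgb4 measured 201 and 212 against 88.5 and 66.0. Their changes of -1.85 (adjusted p = 0.0064) and -1.42 (adjusted p = 0.00926) lost significance without IMQ replicate 1 and without IMQ replicate 2. Dst, the linker between hemidesmosome and keratin filaments, fell from 522 and 758 CPM to 99.9 and 89.8, and Col7a1, the anchoring fibril collagen, from 107 and 99.9 to 25.2 and 23.5. Frem2, a basement membrane protein, had the lowest p of the list, at 18.5 and 23.9 CPM in Sham and 1.72 and 2.71 in IMQ (-3.30 ± 0.40, adjusted p = 0.00022).

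This decline was smaller in the attachment-positive cells. These were chosen by attachment transcripts, so the choice itself may favour other genes of the list. They also held fewer UMIs, at 2243855 and 1171130 in IMQ against 10322198 and 4719192 over all gated cells. Over all genes, too, fewer were called in these cells, 927 against 2460. The part of any of these in the counts and medians was not tested. Leaving aside the genes that chose those cells, 11 of 18 tested genes of the list were lower over all gated cells, with a median of -1.85, and 2 of 18 in attachment-positive cells, with a median of -0.51. Dst was still lower there, at 591 and 886 CPM in Sham against 261 and 222 in IMQ. Col7a1 was at 121 and 118 CPM in Sham against 66.5 and 51.5 in IMQ in these cells, which did not pass (adjusted p = 0.13). Lamb3, a chain of the basement membrane laminin, measured 226 and 215 CPM against 194 and 101 and did not pass either, whereas over all gated cells it fell from 199 and 183 to 59.8 and 39.4 CPM.

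Krt15 (chromosome 11, 100131758 to 100135928, GRCm38) encodes a type I keratin of the basal layer and outer root sheath. It measured 5323 and 3165 CPM in Sham, 121 and 635 in IMQ, with 230 and 200 in IMQ+SHP099. All treated libraries lay below both Sham libraries, and the IMQ value of replicate 2 lay above the other 3 treated libraries (-3.49 ± 0.69, adjusted p = 0.00453). At 2000 UMIs per cell, Krt15 was detected in 92.4% and 94.6% of Sham cells, 9.89% and 31.1% of IMQ cells, and 10.7% and 14.4% of IMQ+SHP099 cells, with 0 to 9.48% in fibroblasts. At the same depth, cells with 2 or more UMIs over 6 hair follicle genes (Lgr5, Cd34, Lhx2, Sox9, Krt75 and Postn) were 65.7% of the attachment-positive cells in IMQ replicate 2, against 20.5 to 29.3% in the other 5 libraries. The part of these cells in the Krt15 level was not tested.

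Of the 17 tested genes of the basal identity list, 6 fell and none rose, with a median of -0.32. Igfbp3, which binds insulin-like growth factors, fell from 1468 and 1079 CPM to 85.2 and 35.2. Dlk2, a Delta-like transmembrane protein, fell from 49.99 and 27.9 CPM to 6.87 and 3.96, and the transcription factor Gata3 from 302 and 250 to 73.6 and 64.4. Trp63, the master regulator of stratified epithelium, was at 342 and 440 CPM in Sham, 180 and 197 in IMQ, with 167 and 250 in IMQ+SHP099. The IMQ and Sham libraries did not overlap, which held for 65.1% of all genes. The change of -1.05 ± 0.35 in IMQ against Sham missed the threshold (adjusted p = 0.0523) and passed it under 7 of the alternatives.

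**Figure D2:**
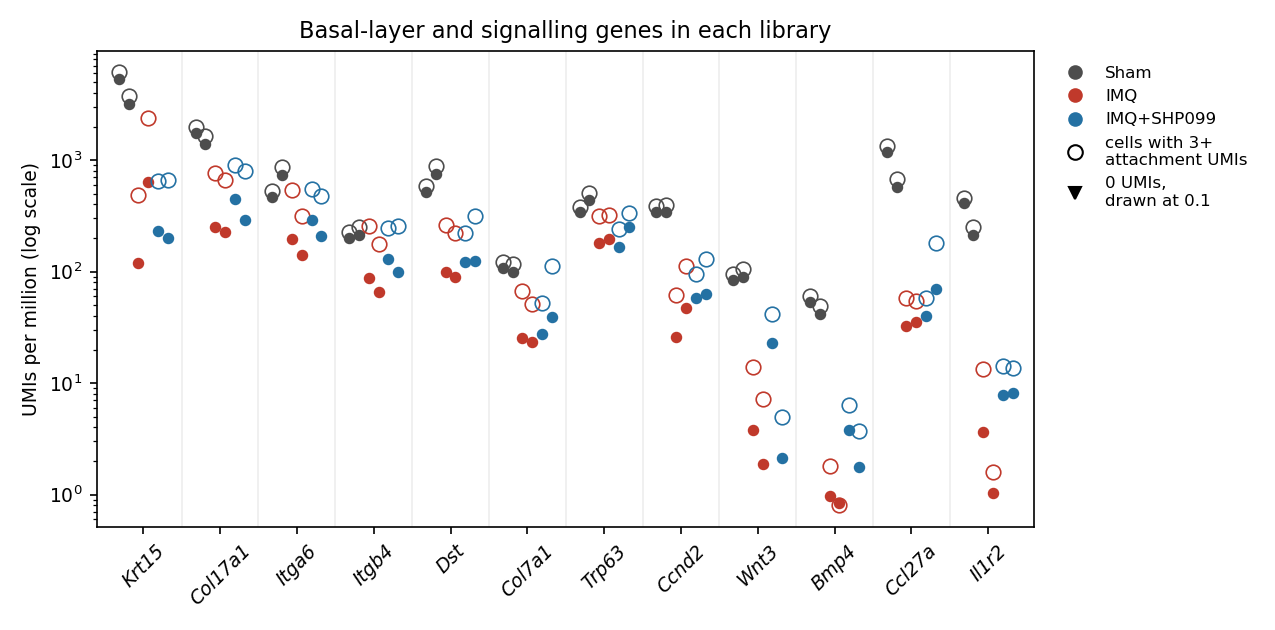
CPM (log axis) of 12 basal-layer and signalling genes in each library, filled for all gated cells and open for attachment-positive cells, with replicate 1 to the left of replicate 2. For Col17a1 the filled treated points lie between 225 and 452 and the Sham points at 1404 and 1737. Krt15, Col17a1, Itga6 and Itgb4 were among the genes that chose the open points.

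Wound keratins rose in every setting tried. All 4 genes of the list were higher in IMQ, over all gated cells (median 6.53) and in attachment-positive cells (median 4.40). Krt6a (chromosome 15, 101689910 to 101694307, GRCm38) went from 52.7 and 29.5 CPM in Sham to 6808 and 6045 in IMQ, and stood at 5861 and 6796 in IMQ+SHP099 (7.28 ± 0.56, adjusted p = 9.5e-06). Krt6b was captured once in the 3668 Sham cells and measured 7248 and 5049 CPM in IMQ. That is a ratio of 294563 with a counting interval of 52867 to 11634711. Krt16 rose from 260 and 106 CPM to 12117 and 7933, and Krt17 from 949 and 792 to 6043 and 5765. At 2000 UMIs per cell, Krt6b was found in 58.3% and 33.9% of IMQ cells, 52.6% and 48.8% of IMQ+SHP099 cells and 0.0329% and 0% of Sham cells, against 0 to 6.21% of fibroblasts. The 0 of 498 Sham cells allows a share of up to 0.602%.

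The wound keratins were lower in attachment-positive cells than over all gated cells of the same treated libraries. In those cells Krt6b measured 1054 and 566 CPM in IMQ, with 743 and 390 in IMQ+SHP099, and Krt16 measured 2501 and 889 CPM in IMQ. Krt17 differed less, at 3898 and 4814 CPM. No test was made of this within-library difference, because the subset was chosen with the values known.

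S100a8 and S100a9, the subunits of calprotectin (chromosome 3, 90668978 to 90670035 and 90692632 to 90695721, GRCm38), rose from a few UMIs in Sham. S100a9 was at 0.223 and 0.106 CPM in Sham, 28486 and 18831 in IMQ, with 25516 and 34439 in IMQ+SHP099. S100a8 was at 0.307 and 0.212 CPM in Sham, 24968 and 17676 in IMQ, with 22403 and 41316 in IMQ+SHP099. In IMQ they measured 7213 and 3540 CPM (S100a9) and 7417 and 3755 CPM (S100a8) in attachment-positive cells. Fibroblasts of treated libraries held 48.5 to 167 CPM of S100a9, and at 2000 UMIs a UMI of it in 10.1 to 30.8% of cells. Gated cells of treated libraries had a UMI of S100a9 in 60.1 to 91.1% of cells.

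Of the 17 tested antimicrobial genes, 16 rose and none fell (median 7.66, or 6.17 with the 3 genes that had no UMI in Sham set at the floor of 3 UMIs over the group). Lcn2, which withholds iron from bacteria, rose from 1.06 and 0.953 CPM to 296 and 197, and Slpi, a protease inhibitor, from 2.09 and 2.01 to 450 and 388. The beta-defensin Defb3 had no UMI in Sham and measured 49.7 and 15.8 CPM in IMQ. Fibroblasts of IMQ skin held more Lcn2 than the gated cells, at 2599 and 980 CPM. Among the small proline-rich and stefin genes, which serve the cornified envelope and inhibit cysteine proteases, 21 of 22 rose (median 9.07, or 6.81 with 7 genes at the floor). Sprr2d rose from 0.139 and 0.106 CPM to 1804 and 1202, and Stfa1 from 38.2 and 35.8 to 4710 and 2993. In attachment-positive cells 14 of 16 tested genes of this list were higher, with Sprr2d at 212 and 179 CPM, and of 11 antimicrobial genes 7 were higher and 1 lower.

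**Figure D3:**
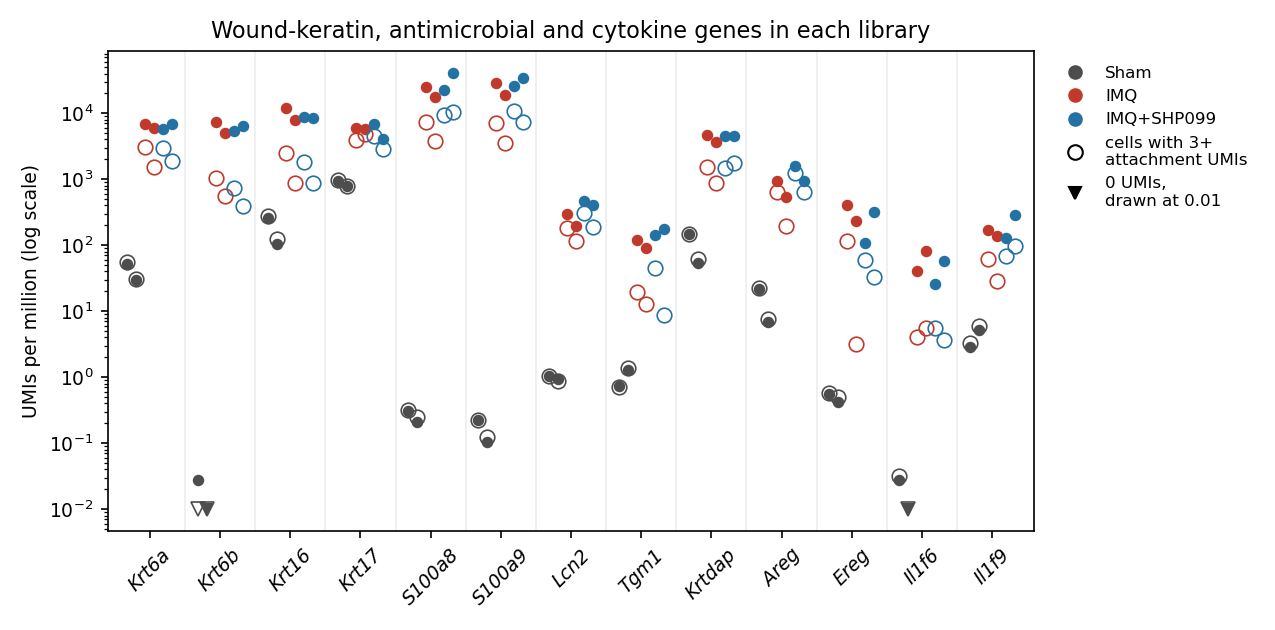
CPM (log axis) of 13 wound keratin, antimicrobial, differentiation and cytokine genes in each library, filled for all gated cells and open for attachment-positive cells, with triangles for libraries at 0 UMIs. The treated points lie above the Sham points for each gene, with Krtdap at 3687 to 4754 against 53.4 and 146 over all gated cells.

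Genes of terminal differentiation split. Of 23 tested, 15 rose and 5 fell (median 2.73). Krtdap, a secreted protein of the suprabasal layers, rose from 146 and 53.4 CPM to 4754 and 3687. Tgm1, the transglutaminase that crosslinks the envelope, rose from 0.725 and 1.27 to 120 and 90.8 CPM, and the desmosomal cadherin Dsc1 from 0.697 and 0.635 to 24.3 and 27.5. Involucrin (Ivl) rose from 3.04 and 2.22 CPM to 27.0 and 57.5. Loricrin and Krt77, which belong to normal epidermis, went the other way. Loricrin (Lor) fell from 5.86 and 3.28 CPM to 1.5 and 0.417, and Krt77, a keratin of the suprabasal layers, fell from 78.7 and 101 to 0.537 and 1.04. Suprabasal cells of the same libraries, scaled together with the basal sums, held 10463 and 9069 CPM of Krt77 in Sham and 1.15 and 0.427 in IMQ. The part of suprabasal RNA in the Krt77 level of gated cells was not tested. In attachment-positive cells 6 of 21 tested genes of the list rose and 4 fell, with a median of 0.04. Krtdap measured 1554 and 881 CPM there, and Dsg1b, which rose over all gated cells from 4.82 and 5.50 to 54.9 and 49.6 CPM, was at 8.08 and 4.02 against 5.55 and 6.41 in Sham.

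Epidermal cytokines of the interleukin 1 family rose, as did growth factors of the EGF receptor. In the interleukin 1 list 8 of 14 genes were higher and 2 lower. Il1f6 (interleukin 36 alpha) had 1 UMI in Sham and measured 40.9 and 83.1 CPM in IMQ. Il1f9 (interleukin 36 gamma) rose from 2.87 and 5.19 to 173 and 137 CPM, and Il1a from 1.12 and 0.635 to 22.5 and 14.6. Il1r2, the decoy receptor that binds interleukin 1 without signalling, fell from 409 and 211 CPM to 3.65 and 1.04 (-6.92 ± 0.57, adjusted p = 1.4e-05). It stood at 7.78 and 8.15 CPM in IMQ+SHP099, with no overlap with IMQ, which did not pass. Il1r2 is also a neutrophil marker. The other 7 neutrophil markers together held 8 and 8 UMIs in Sham, at 0.226 and 1.18 CPM without TMM scaling, and 5.72 to 6.78 CPM in the treated libraries. The part of neutrophil RNA in the Il1r2 level was not tested.

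Among 12 tested genes of the EGF receptor list, 5 rose and none fell (3 and none without IMQ replicate 1, and 3 and 1 without Sham replicate 2). The ligand amphiregulin (Areg) rose from 21.5 and 6.77 CPM to 943 and 543, and reached 634 and 197 in attachment-positive cells. Epiregulin (Ereg) rose from 0.558 and 0.423 to 408 and 232 CPM, and in attachment-positive cells was at 117 CPM in IMQ replicate 1 and 3.22 in replicate 2. The receptor Egfr was at 49.9 and 57.3 CPM in Sham and 29.5 and 38.3 in IMQ, which did not pass (adjusted p = 0.126).

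Chemokines went both ways, with 5 of 17 higher and 2 lower. Ccl27a, the chemokine that calls skin-homing T cells in resting epidermis, fell from 1192 and 570 CPM to 32.6 and 35.4 (-4.70 ± 0.50, adjusted p = 7.7e-05). Ccl20, which calls type 17 T cells, rose from 5.77 and 18.0 CPM to 207 and 157. In attachment-positive cells Ccl20 was at 38.2 and 3.22 CPM in IMQ against 6.45 and 21.4 in Sham, and the groups overlapped. The neutrophil chemokines Cxcl1 and Cxcl2 rose from 11.0 and 3.28 to 113 and 41.2 CPM and from 19.0 and 5.19 to 417 and 119 CPM. Cxcl1 was as high in attachment-positive cells as over all gated cells in IMQ replicate 1 (188 CPM against 113), and lower in replicate 2 (28.2 against 41.2).

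Signals and receptors of the resting basal layer fell. In the Notch, Wnt and BMP list 13 of 32 genes were lower and none higher (median -1.05), and 7 of 32 in attachment-positive cells. Bmp4, a growth factor of the BMP family, fell from 53.9 and 41.4 CPM to 0.966 and 0.833. Wnt3 fell from 83.8 and 89.0 to 3.76 and 1.87 CPM, Wnt7b from 74.1 and 70.6 to 9.99 and 9.37, and the Notch ligand Jag2 from 132 and 164 to 24.8 and 28.5. Bmp4 and Wnt3 stayed at 1.80 and 0.805 and at 13.9 and 7.24 CPM in attachment-positive IMQ cells. In the cytokine receptor list 9 of 23 genes were lower and 1 higher (4 lower and none higher without IMQ replicate 1, 5 lower without IMQ replicate 2, and 5 lower and 1 higher without Sham replicate 2). Il20ra, a chain of the receptor for interleukins 20 and 24, fell from 29.2 and 38.8 CPM to 0.859 and 0.208. Il6ra fell from 51.9 and 66.3 to 8.48 and 6.04 CPM, and Ifngr1, a chain of the interferon gamma receptor, from 146 and 87.0 to 33.6 and 30.6.

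Most antigen presentation genes fell, while most interferon-stimulated genes did not pass the test. Of 18 MHC presentation genes 10 fell and 2 rose (7 fell and none rose without Sham replicate 1, and 6 and none without IMQ replicate 1). Nlrc5, the transactivator of class I genes, fell from 28.4 and 28.7 CPM to 6.01 and 6.25, and the class I gene H2-Q4 from 173 and 90.3 to 35.5 and 25.2. The class II genes H2-Aa and H2-Eb1 were high in 1 Sham library. H2-Aa measured 118 and 10.7 CPM in Sham and 1.83 and 0.208 in IMQ. The Langerhans cell gene Cd207 stood at 75.1 CPM in that library, Sham replicate 1, and at 2.12 CPM or less in the other 5, and its part in the class II values was not tested. Of 20 interferon-stimulated genes 5 fell and 1 rose (2 fell and 1 rose without IMQ replicate 1). Usp18, a brake on interferon signalling, fell from 7.70 and 8.36 CPM to 0.215 and 0.208, while Ifitm1 rose from 0.362 and 0.318 to 16.4 and 8.12.

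The gate left out cells with 2 or more UMIs of Mki67 and Top2a, yet other mitotic genes rose. Of 30 cell cycle genes outside the gate 10 were higher and none lower, both over all gated cells (median 0.36) and in attachment-positive cells (median 0.91). Ccnb2, a mitotic cyclin, rose from 1.87 and 2.75 CPM to 26.7 and 18.1, and Birc5 (survivin) from 4.15 and 3.18 to 33.8 and 21.5. The limit on Mki67 and Top2a is a number of UMIs, and gated cells of treated skin held more UMIs; the part of this in the cell cycle values was not tested. Ccnd2, the D-type cyclin that was abundant in Sham basal cells, fell from 341 and 345 CPM to 25.9 and 46.9 (-3.25 ± 0.37, adjusted p = 0.000138). Over the cyclin and inhibitor list 3 of 16 rose and 4 fell (none and 2 without IMQ replicate 1, and 2 and 2 without IMQ replicate 2). The inhibitor Cdkn2b rose from 1.98 and 1.69 CPM to 9.45 and 6.46, and lost significance without IMQ replicate 1.

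Of 26 glycolysis and hypoxia genes 11 rose and none fell, but 2 rose without IMQ replicate 1, and 7 rose and 1 fell without Sham replicate 1. Hexokinase 2 (Hk2) rose from 33.3 and 35.7 CPM to 152 and 110. Of 21 metallothionein and redox genes 10 rose and 2 fell. The glutathione transferase Gsta4 rose from 5.38 and 3.39 CPM to 1046 and 493, and the cystine transporter Slc7a11 from 0.390 and 0.741 to 112 and 85.4. Of 22 wound migration and proteolysis genes 8 rose and 2 fell (3 and 2 without Sham replicate 1, and 5 and 1 without IMQ replicate 1). The urokinase gene Plau rose from 3.62 and 4.66 CPM to 32.3 and 19.2, and the metalloprotease inhibitor Timp3 fell from 71.6 and 90.3 to 12.2 and 21.7. Of 19 hair follicle genes 3 rose and 2 fell (none and 5 without IMQ replicate 2, and 3 and 4 without Sham replicate 1), of 21 desmosome and adherens junction genes 3 rose and 1 fell, and of 8 sebaceous gland genes 4 rose and 1 fell (3 and none without either Sham library, and 2 and none without IMQ replicate 1). Called were 26.3% of the hair follicle genes, 19.0% of the desmosome and adherens junction genes and 62.5% of the sebaceous gland genes. Over all genes the share was 20.8%. The follicle stem cell gene Lgr6 fell from 64.6 and 73.7 CPM to 3.54 and 12.9, while 3 other hair follicle genes rose. The gap junction gene Gjb2 rose from 2.98 and 46.3 to 1032 and 760 CPM.

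Ptpn11, which encodes SHP2, measured 35.4 and 42.9 CPM in Sham, 33.5 and 37.1 in IMQ, with 38.7 and 35.1 in IMQ+SHP099 (IMQ against Sham -0.15 ± 0.27, adjusted p = 0.736), with all 3 groups overlapping. Of 16 SHP2 and adaptor genes 2 fell, Irs1 and Sirpa, neither of which passed without IMQ replicate 1, and 1 gene passed without IMQ replicate 2 or without Sham replicate 2. The shares called, 12.5% of SHP2 and adaptor genes, 15.8% of ERK feedback genes, 25.0% of NF-kB and interleukin 17 feedback genes, 8.33% of STAT3 and SOCS genes and 10.0% of AP-1 and immediate early genes, stand beside 20.8% of all genes. In the ERK feedback list 1 of 19 rose and 2 fell (1 and 4 without Sham replicate 2 or either IMQ+SHP099 library, and 1 and 1 without either IMQ library). Phlda1 rose from 173 and 66.3 CPM to 1029 and 677, Spred2 fell from 34.0 and 69.9 to 9.88 and 10.0, and the ERK phosphatase Dusp6 was level at 46.9 and 45.3 against 47.6 and 48.1. Of 20 NF-kB and interleukin 17 feedback genes 3 rose and 2 fell (1 and 1 without IMQ replicate 1, 1 and none without IMQ replicate 2, and 3 and none without Sham replicate 2). The transcription factor Cebpd rose from 34.5 and 41.4 CPM to 171 and 146. It was not called when cells with 2 or more follicle UMIs at full depth were taken out. That left 1846 and 218 Sham cells and 157 and 58 IMQ cells. Of 12 STAT3 and SOCS genes only Socs1 rose, at 8.64 and 9.10 CPM in Sham and 31.1 and 14 in IMQ, and it lost significance without IMQ replicate 1 and without either Sham library. Of 20 AP-1 and immediate early genes Atf3 and Nr4a1 fell. None was called without IMQ replicate 1 or IMQ replicate 2, 5 without Sham replicate 2, and 1 without any 1 of the other 3 libraries.

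**Figure D4:**
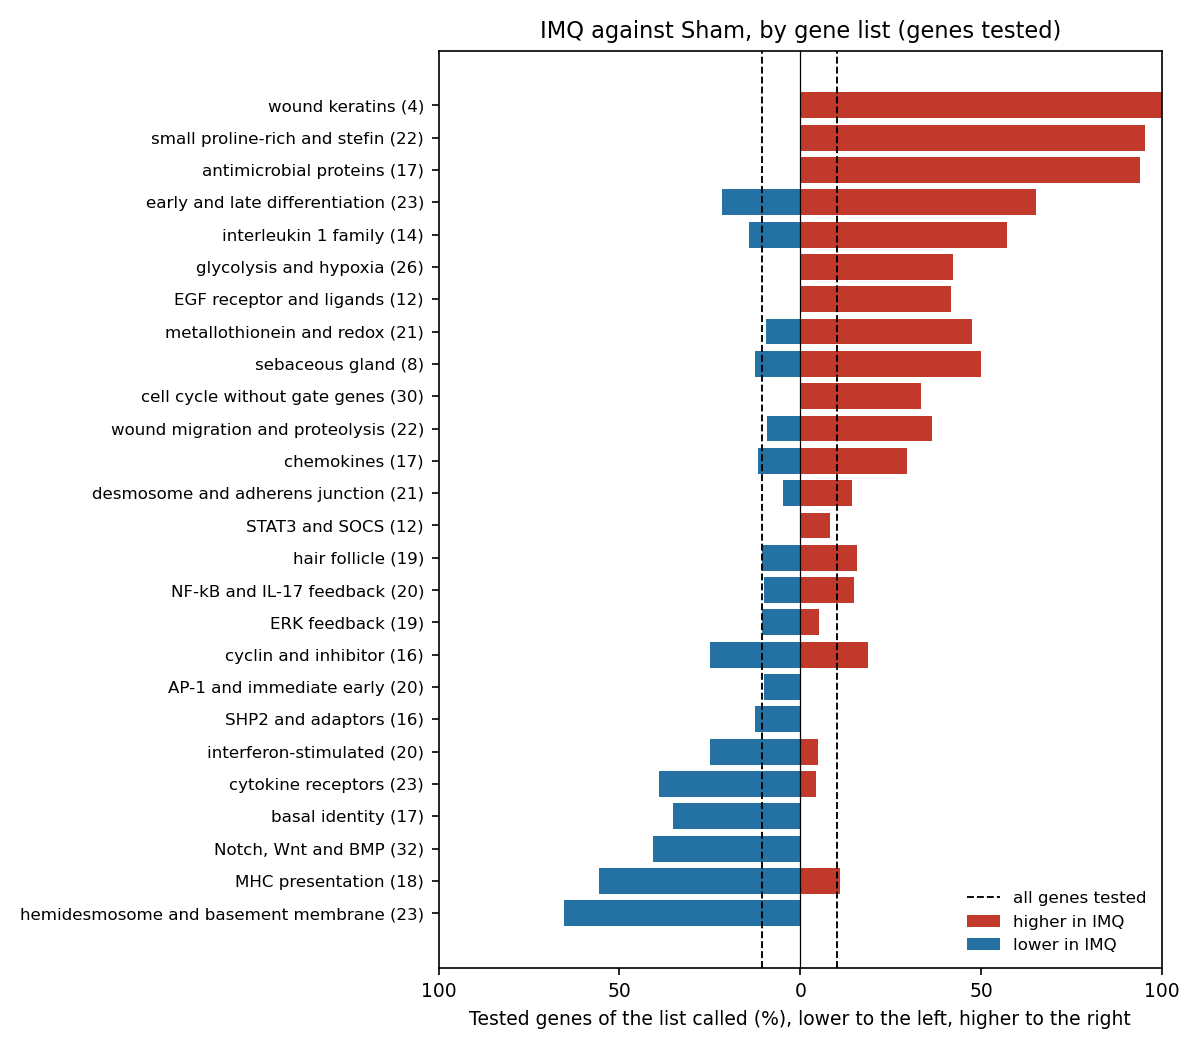
Percent of the tested genes of each list called higher (right) or lower (left) in IMQ against Sham, with the number tested in brackets and dashed lines at the shares over all genes, 10.1% higher and 10.7% lower. The wound keratin, small proline-rich and antimicrobial lists reach furthest to the right, and the hemidesmosome list reaches furthest to the left, at 65.2%.

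By size, the strongest rises among well expressed genes were Krt6b, S100a9, S100a8, Gm5416, Sprr2b, Uox, Sprr2i, Sprr2d, Serpinb3a and Lce3d. Gm5416, Sprr2b, Uox and Lce3d had no UMI in Sham, so their changes are bounds, of at least 4468-fold, 3816-fold, 1454-fold and 625-fold. Uox encodes urate oxidase and measured 122 and 70.2 CPM in IMQ, with 89.5 and 178 in IMQ+SHP099. In attachment-positive IMQ cells it was at 5.84 and 7.24 CPM. The deepest falls were those of Serpinb7, Skint7, Ppp2r2c, Pkib, Pyy, Sema3d, Krt77, Il12rb2, Guca2a and Adamts14. Serpinb7, a serine protease inhibitor of epidermis, was at 66.2 and 29.4 CPM in Sham and had no UMI in IMQ (at least 225-fold lower). Skint7, of the gene family that selects epidermal gamma-delta T cells, was at 26.2 and 18.9 CPM and had none (at least 106-fold lower). Il12rb2, a chain of the interleukin 12 receptor, fell from 23.4 and 24.8 CPM to 0.215 and 0.208. Sema3d, a secreted guidance factor, fell from 55.0 and 109 CPM to 0.537 and 0.417, and stood at 0.437 and 0.355 in IMQ+SHP099. In attachment-positive cells Serpinb7 and Skint7 likewise had no UMI in IMQ, among fewer UMIs in all, and Sema3d was at 62.2 and 128 CPM in Sham against 0.449 and 1.61 in IMQ.

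IMQ+SHP099 was compared with IMQ to ask which of these levels the inhibitor moved. In edgeR 1 of 11821 genes passed (0.00846%), lower under SHP099, and 382 (3.23%) had an unadjusted p under 0.05. DESeq2 called 12. The gene was Krt42, a type I keratin (chromosome 11, 100262882 to 100269871, GRCm38), at 49.7 and 97.5 CPM in IMQ, 1.46 and 3.55 in IMQ+SHP099, and 1.00 and 0.212 in Sham (-5.23 ± 0.59, adjusted p = 0.0278). The IMQ libraries lay above the other 4. It was not called without Sham replicate 1, without IMQ+SHP099 replicate 1 or without IMQ+SHP099 replicate 2. Nor was it called when the cells with 2 or more follicle UMIs at full depth were taken out, which left -1.49. The cells then numbered 157 and 58 in IMQ, with 994 and 67 in IMQ+SHP099. In attachment-positive IMQ cells Krt42 stood at 1.80 and 373 CPM, in replicates 1 and 2. The count of genes rose to 11 without IMQ replicate 1 and 2 without IMQ replicate 2.

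None of the gene lists had a member called between IMQ+SHP099 and IMQ. The medians of the lists other than cell type markers lay between -0.58 (hair follicle) and 0.73 (small proline-rich and stefin), with 0.04 over all genes. The marker lists of other cell types, with 2 to 8 tested genes each, had medians from -1.22 to 1.05. No wound keratin was free of overlap between the 2 groups. Krt6a differed by -0.02 ± 0.42 and S100a9 by 0.34 ± 0.46 (log2). After Krt42, the lowest unadjusted p among the genes of the lists and rules were those of Ppp2r2c (4.87 ± 0.80, adjusted p = 0.404) and of Dlk2, at 27.3 and 20.2 CPM against 6.87 and 3.96 in IMQ (2.11 ± 0.40, adjusted p = 0.502). Ppp2r2c had 2 UMIs in IMQ, and its ratio of 26.0 had a counting interval of 7.07 to 217. Igfbp3, Il1r2, Bmp4 and Il20ra also lay between IMQ and Sham with no overlap with IMQ, at 254 and 173, 7.78 and 8.15, 3.76 and 1.77, and 3.67 and 1.42 CPM. These 6 were picked after their values were seen, none passed, and over all genes 29.2% did not overlap between the 2 groups. Among hemidesmosome genes 9 of 23 were higher in both IMQ+SHP099 libraries than in both IMQ libraries and 1 was lower, with Col17a1 at 452 and 292 CPM against 249 and 225. Dusp6 was at 71.0 and 72.3 CPM against 47.6 and 48.1 (0.58 ± 0.26) and did not pass. Gpx2, a glutathione peroxidase, was at 24.1 and 53.5 against 134 and 156 CPM (-1.94 ± 0.44, adjusted p = 0.872).

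Against Sham, IMQ+SHP099 gave 2679 called genes (22.7%), 1391 higher (11.8%) and 1288 lower (10.9%). Without IMQ+SHP099 replicate 1 there were 1188, and in attachment-positive cells 1106. This comparison shares the Sham libraries with the first. All 4 wound keratins and 22 of 22 small proline-rich and stefin genes rose, 16 of 17 antimicrobial genes rose, and 14 of 23 hemidesmosome genes fell (8 without IMQ+SHP099 replicate 1). The 5 strongest rises were Krt6b, S100a9, S100a8, Sprr2b and Gm5416, and the 5 deepest falls were Krt77, Sema3d, Skint7, Bbox1 and Adamts14. Bbox1, an enzyme of carnitine synthesis, was at 68.8 and 55.6 CPM in Sham, 1.72 and 4.58 in IMQ, with 0.816 and 0.355 in IMQ+SHP099. Of the cell cycle genes 15 of 30 were higher than in Sham and none was lower. Of the glycolysis and hypoxia genes 16 of 26 were higher (4 without IMQ+SHP099 replicate 1), and of the Notch, Wnt and BMP genes 16 of 32 were lower and 1 higher (10 and 1 without that library).

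The IMQ effect in gated basal cells was set against that in suprabasal cells (3827 cells). These had Krt1 and Krt10 at 30 or more per 10000 UMIs and no limit on Krt5 and Krt14. The other limits of the gate were the same. The difference of the 2 effects was tested in edgeR on 12 sums across 12508 genes. It was called for 1352 genes (10.8%), 831 with a higher effect in basal cells (6.64%) and 521 with a lower one (4.17%). The count was 830 without Sham replicate 1, 873 without IMQ replicate 1 and 675 with attachment-positive cells in place of all gated basal cells. On simulated data this test made false calls above its nominal rate, so adjusted p-values near the threshold carry little weight. The gated cells are called basal here by the gate alone, since in IMQ most of them held few attachment transcripts. CPM values of this comparison are scaled over its 12 sums.

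Of 25 tested differentiation genes, 17 had a higher IMQ effect in gated basal cells and none a lower one (median 2.74). With attachment-positive cells alone 5 were higher and 4 lower (median -0.24). Krtdap went from 12244 and 6210 CPM in Sham to 7037 and 8071 in IMQ in suprabasal cells, and Dsc1 from 75.3 and 52.9 to 101 and 85.4. Krt15 and Col17a1 fell further in suprabasal cells, Krt15 from 1600 and 735 CPM to 1.46 and 0.427 and Col17a1 from 497 and 456 to 5.23 and 4.05. The difference was 5.95 ± 0.65 (adjusted p = 2.7e-05) for Krt15 and 3.90 ± 0.48 (adjusted p = 8.9e-05) for Col17a1. In Sham, 48.3% and 47.9% of suprabasal cells held 3 or more attachment UMIs at 2000 UMIs per cell, and in IMQ none of 309 and 145 did, which allows up to 0.971% and 2.07%.

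The 5 largest differences upward were those of Sprr2i, Gm3776, Adh6a, Krt23 and Cdsn, and downward those of Serpinb7, Akr1c18, Pdk4, Dapk2 and Tagln. Corneodesmosin (Cdsn), which holds cornified cells together, fell in suprabasal cells from 118 and 41.6 CPM to 3.35 and 3.63. Krt23, a type I keratin, fell in suprabasal cells from 39.9 and 15.5 to 0.523 and 2.13 CPM and was at 0.320 and 0.101 against 1.88 and 4.57 in basal cells. Sprr2i was not called without Sham replicate 1 (0.39), the library whose suprabasal cells held 17.1 CPM of it against 0 in the other. Akr1c18, a steroid-metabolising reductase, went from 54.2 and 47.2 CPM to 14.1 and 6.96 in basal cells and from 7.38 and 1.37 to 60.1 and 111 in suprabasal cells. Pdk4, a kinase that holds back pyruvate oxidation, was at 18.7 and 18.8 against 58.2 and 35.6 CPM in basal cells and went from 2.92 and 0.600 to 85.5 and 130 in suprabasal cells. Of 20 AP-1 and immediate early genes 11 had a lower IMQ effect in basal cells and none a higher one, but 2 without Sham replicate 1, 2 without IMQ replicate 2, 7 without IMQ replicate 1 and 18 without Sham replicate 2.

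**Figure D5:**
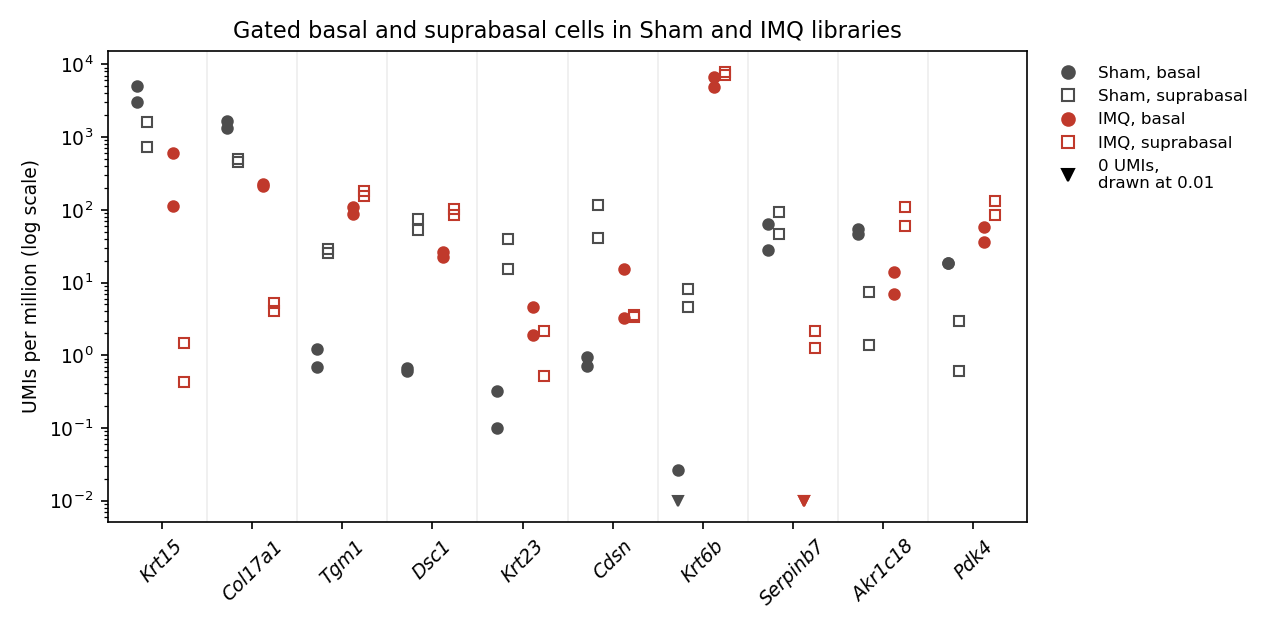
CPM (log axis, library sizes scaled over the 12 class sums) of 10 genes in gated basal cells (circles) and suprabasal cells (squares) of the Sham and IMQ libraries, with triangles for sums at 0 UMIs. Krt15 in suprabasal cells is at 1600 and 735 in Sham and at 1.46 and 0.427 in IMQ, and Akr1c18 moves in opposite directions in the 2 classes.

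As a share of all gated keratinocytes (basal, suprabasal, Krt79 and cycling), the basal gate held 55.0% and 38.1% of the Sham cells, 25.8% and 25.7% of the IMQ cells, with 36.4% and 32.2% for IMQ+SHP099. The groups did not overlap, and the differences of -20.8 points (IMQ minus Sham) and 8.53 points (IMQ+SHP099 minus IMQ) each had p = 0.333 by an exact two-sided permutation test, the smallest that 2 libraries against 2 allow. With cells of at least 2000 UMIs thinned to 2000 before gating, the shares were 58.7% and 41.9%, 45.3% and 44.1%, and 65.9% and 46.3%. IMQ then lay inside the Sham range, 5.62 points below its mean. Of all kept cells, the gate held 1.83 to 36.8% of a library, at 36.8% and 6.20% for Sham, 4.08% and 1.88% for IMQ, with 22.3% and 1.83% for IMQ+SHP099.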

How the data were processed

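Skin of Sham, IMQ and IMQ+SHP099 mice was dissociated and profiled with a droplet 3′ single-cell kit, unsorted. The authors aligned reads to GRCm38 and counted UMIs with Cell Ranger before depositing 1 count matrix per library, and these deposited counts were the only values used. Cells with fewer than 100000 UMIs, fewer than 6500 genes and under 10% mitochondrial UMIs were kept, and the keratin gate was applied. Doublets were scored but not removed, and a score over 0.3 was found in at most 0.62% of gated cells of a library. Gene positions came from GENCODE vM21, with 30934 of 31053 genes matched.

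UMIs were summed per library and class, filtered with filterByExpr, scaled by TMM and tested by edgeR 4.0.16 quasi-likelihood fits in R 4.3.3 with all 6 libraries, with Benjamini-Hochberg adjustment. The class-by-group test had a term for the library. The study's own test took single cells as replicates, which was not done here. Cell thinning used numpy 2.4.6 with a fixed seed. The genes named were the 10 rises and 10 falls of largest size in IMQ against Sham, 5 each way in the other comparisons, all called and at 20 CPM or more in a group, and genes of fixed lists. The members, lists and rules were chosen with earlier results of these data known. Scripts were tested on simulated data. Depth was 2988089 to 42160663 UMIs over gated cells per library. DESeq2 1.42.0, other filters, gates and left-out libraries were tried as alternatives.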

Additional observations from a re-analysis of the deposited data

Results flagged for a closer look

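For 22 named genes the IMQ effect differed between gated basal and suprabasal cells by the edgeR class-by-group test (2 libraries per group). Values are the effect in basal cells minus that in suprabasal cells, on the log2 scale, and their causes were not tested. Among keratins the difference was 5.95 for Krt15, 7.11 for Krt6b, 1.15 for Krt16, -1.95 for Krt17 and 8.34 for Krt23. Attachment genes gave 3.90 for Col17a1, 1.37 for Itga6 and 2.31 for Itgb4. Calprotectin gave 2.02 for S100a8 (edgeR adjusted p = 0.043) and 3.29 for S100a9, and the interleukin 36 genes 7.24 for Il1f6, with 1 UMI in Sham basal cells, and 1.44 for Il1f9 (edgeR adjusted p = 0.0264). Krt6b also had 1 UMI there. Cdsn gave 7.76, and lower effects in basal cells were found for Akr1c18 (-6.38), Pdk4 (-4.38), Dapk2 (-3.98), Tagln (-3.82) and Dusp6 (-0.80, edgeR adjusted p = 0.0132). The adjusted p of Krt16 was 0.014 by the same edgeR test, which on simulated data made false calls above its nominal rate, so those near the threshold carry little weight. Some fitted values rest on arms near 0 UMIs and depend on the prior count. Gm3776 (fitted 8.69) had no UMI in Sham basal cells, and the difference was at least 5.60 with that arm at 3 UMIs. Serpinb7 (fitted -6.87) had none in IMQ basal cells, and with that arm at 3 UMIs the difference was -2.49 or lower. Adh6a (fitted 8.36) had 2, 3 and 4 UMIs in Sham basal, IMQ basal and IMQ suprabasal cells. Sprr2i (fitted 9.23) had 1 UMI in Sham basal cells, and its difference was 0.39 and not called without Sham replicate 1. With attachment-positive cells in place of all gated basal cells, Gm3776, Adh6a, Cdsn, Sprr2i, Serpinb7 and Tagln were not called.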

How the results depend on the processing

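Of 2942 alternative values for 157 single-gene results, 2800 kept their direction and side of the threshold, 135 lost the call, 7 gained it (all Trp63) and none changed direction. IMQ against Sham gave 1018 to 2606 genes with 1 library left out, IMQ+SHP099 against Sham 1188 to 2442, the class difference 830 to 1623, and IMQ+SHP099 against IMQ 0 to 11. In attachment-positive cells, an alternative chosen after seeing the data, the counts were 927, 1106, 675 and 0. IMQ+SHP099 against IMQ gave 99 genes with no filter on low counts, 12 with DESeq2 and 0 with only the 2 groups compared. It gave 0 without the cells of 2 or more follicle UMIs at full depth, and the causes were not tested. Such cells need not be follicle cells. Among suprabasal cells that cut took 10.6% in Sham replicate 1 and 49.2% in IMQ replicate 1, where Sox9 alone took 47.9%. With the replicate block IMQ+SHP099 against IMQ gave 4, and the comparisons with Sham 3238 and 3496. The main fits did not pair libraries by replicate number, which is all that the labels give them in common. Deviations of same-numbered libraries correlated between groups at 0.107 (Sham and IMQ), 0.194 (Sham and IMQ+SHP099) and 0.0809 (IMQ and IMQ+SHP099). Whether same-numbered libraries share a source of spread was not tested. The share of basal cells, IMQ minus Sham, moved from -20.8 to -5.62 points with thinning before gating, and ran from -29.3 to -12.4 with 1 library left out. IMQ+SHP099 minus IMQ ran from 6.46 to 10.6. With 2 pooled libraries per group, 194 and 135 cells in the smallest ones limit the values of rare transcripts.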
